A study of Mus musculus with 3 samples.

Results

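The AP-1 and EGR immediate early factors are the 4 genes of the FOS family (Fos, Fosb, Fosl1 and Fosl2), the 3 genes of the JUN family (Jun, Junb and Jund) and Egr1, Egr2 and Egr3. They were taken as named genes, and a probe set was counted to a gene when its annotation named that gene alone. All 10 genes were found, with 16 probe sets among 45037 on the arrays and 10 of 18193 genes in all. No further probe set named a member together with other genes. Nothing measured was used to choose them, but the list was drawn up with earlier results of these arrays known.

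NIH3T3 cells, an immortalized line of mouse embryonic fibroblasts from the NIH/Swiss strain, were compared in 3 conditions with 1 array each. The mtYAP cells stably overexpressed YAP with the substitution S112A, which removes the serine that the LATS kinases of the Hippo pathway phosphorylate, and the YAP cells stably overexpressed wild-type YAP. The control cells are labelled untransduced, whereas both YAP lines had gone through retroviral infection and puromycin selection, and the study's methods also mention an empty vector virus. All 3 were kept in medium with 10% calf serum, and neither a stimulus nor the time since the last change of medium is given in the sources used here. The study introduces the arrays with the growth of the YAP lines under confluent conditions, but its array methods do not state the cell density. The part of density in the differences below was not tested. Each condition was a single array, so no difference below has an error or a test, and both comparisons with control rest on the same control array.

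Immediate early genes are transcribed within minutes of a mitogen or a stress, from promoters that carry preformed regulators such as serum response factor (SRF), its ternary complex partners and CREB, and their mRNAs are short-lived. FOS and JUN proteins share a basic region and a leucine zipper and dimerize into AP-1, which binds the motif TGAGTCA and its near relatives. JUN proteins can pair with each other, whereas FOS proteins need a JUN partner. EGR proteins are zinc finger factors that bind GC-rich sites and are restrained by the NAB corepressors. In fibroblasts both families are textbook readouts of serum and of ERK signalling, and YAP with TEAD occupies many enhancers that also carry AP-1 sites in human cancer cells.

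The deposited values are log2 levels, so that a difference of 1 is a 2-fold difference. The probe sets of Yap1 read 6.63 and 9.15 in mtYAP and 6.61 and 9.51 in YAP, against 7.30 and 9.84 in control, and since the part of the mRNA they read is not given, they do not check the labels. A level of 6 or more on an array was taken as clearly measured. Of 12 fibroblast markers, 11 lay at 6 or more on every array, and the exception was Lum at 3.94 in mtYAP, 6.26 in YAP and 8.63 in control. Levels of the fibroblast markers differed between the arrays as well. All 12 were lower in mtYAP than in control, with a median difference of −0.74 and 5 below −1, and 9 of 12 were lower in YAP, with a median of −0.36 and 2 below −1. Besides Lum, those below −1 in mtYAP were the PDGF receptors Pdgfrb at −2.615 and Pdgfra at −2.41, S100a4 at −1.68 and Thy1 at −1.67, and their part in the results on the members was not tested. Not 1 of 19 measured markers of epithelial, endothelial, immune or pluripotent cells reached 6 on any array. The median difference over all genes was 0.020 in mtYAP against control, −0.0033 in YAP against control and 0.025 in mtYAP against YAP. In bulk RNA, fewer cells that transcribe a gene and less RNA per cell cannot be told apart.

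The members lay below control more often than above it. In mtYAP, 3 of 10 genes (Egr2, Fos and Egr3) were below control by more than 1, where 4.06% of all genes and 8.22% of the genes with a level of 6 or more on at least 1 array lay below −1. Without Fosb, which was below 6 on every array, these were 3 of 9 members. Egr2 and Egr3 reached 6 on the control array alone, the array on which they were highest. The Egr3 mean of −1.01 came from 1 of 2 probe sets. Not 1 member lay above 1 in mtYAP, where 3.77% of all genes and 7.66% of the genes at that level did. In YAP, only Fos lay below −1, where 1.26% of all genes and 2.30% of those at a level of 6 or more did. No member lay above 1 in YAP, where 1.36% and 2.72% did. The median of the 10 members was −0.285 in mtYAP and −0.225 in YAP, beside the fibroblast marker medians of −0.74 and −0.36. By sign, 7 members were lower than control in mtYAP, as were 46.5% of all genes and 51.3% of those at a level of 6 or more. In YAP 8 were lower, as were 50.2% and 45.5%.

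**Figure D1:**
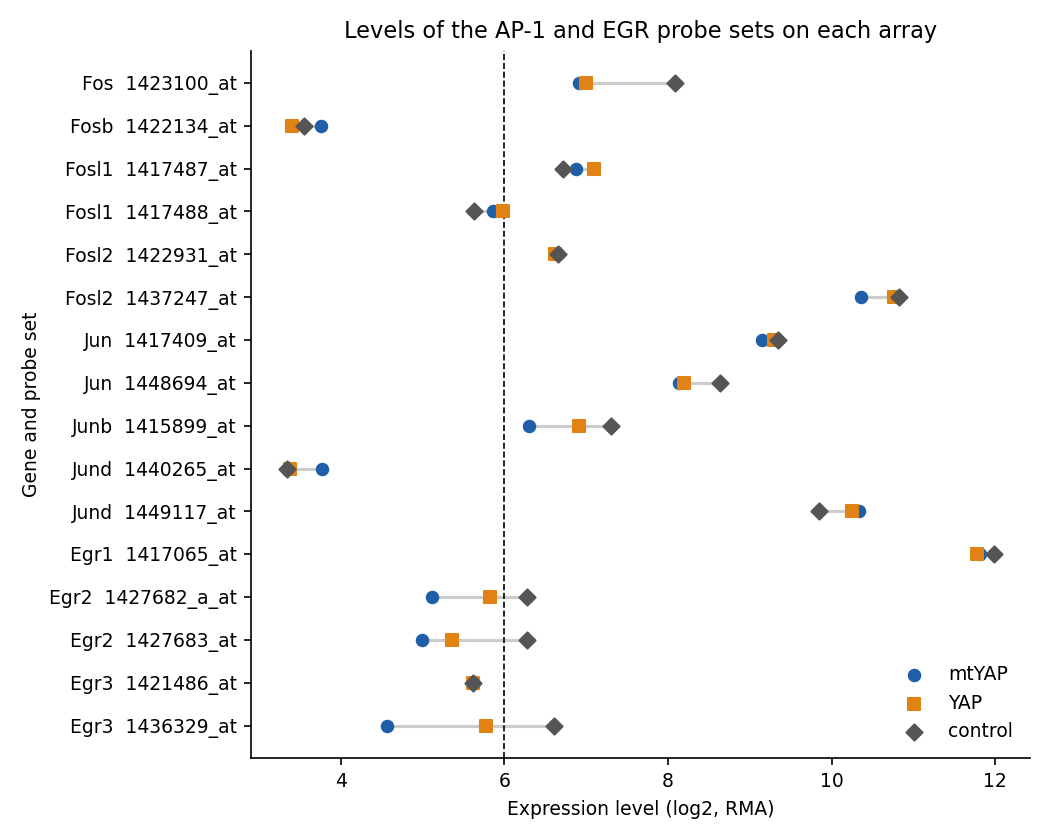
Level of each of the 16 probe sets (rows) on the mtYAP (blue circles), YAP (orange squares) and control (grey diamonds) arrays, in log2 units, with the level of 6 as a dashed line. The control array is the highest of the 3 for Fos, both Jun probe sets, Junb, Egr1, both Egr2 probe sets and 1 of 2 each of Fosl2 and Egr3, and the lowest for both Fosl1 and both Jund probe sets.

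Within a probe set, the order of the arrays was often graded. In 8 of the 16 probe sets mtYAP was lowest, YAP in between and control highest, an order held by 22.2% of all probe sets and by 31.1% of those with a level of 6 or more on at least 1 array. Some of these orders rest on small steps between single arrays. Examples are Fos at 6.91 in mtYAP and 7.0 in YAP, and a Fosl2 probe set at 10.76 in YAP and 10.82 in control. The reverse order was seen in 2 probe sets, both of Jund. It was held by 22.9% of all probe sets and by 29.5% of those with a level of 6 or more on at least 1 array. Both Fosl1 probe sets had YAP highest and control lowest, as did 11.0% of all and 10.9% of those at that level. Probe sets of a gene read the same RNA and are not replicates.

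The FOS family was led by Fos, the prototype of the immediate early genes and the FOS protein most closely tied to acute serum stimulation. Fos read 6.91 in mtYAP and 7.0 in YAP, against 8.09 in control, in its only probe set. Both YAP lines thus lay below control and close to each other, and all 3 levels were clearly measured. The log2 difference was −1.18 in mtYAP (2.27-fold lower) and −1.09 in YAP (2.13-fold lower). In YAP, 1.01% of all genes had a lower difference than Fos, and in mtYAP 2.95% had. Of the genes with a level of 6 or more on at least 1 array, 1.87% had in YAP and 6.17% in mtYAP. With wild-type and with mutant YAP, Fos thus lay about as far below control, and both values subtract the same control reading of 8.09. Its promoter is shown because Fos was the member called in both lines. It runs from 250 bases before to 50 bases after the RefSeq start (GRCm38.p6, chr12:85473640-85473939, plus strand), with the cAMP response element core TGACGT, 66 bases before the start, and the ETS core GGAAGT, 59 bases before it, in capitals:
Fos: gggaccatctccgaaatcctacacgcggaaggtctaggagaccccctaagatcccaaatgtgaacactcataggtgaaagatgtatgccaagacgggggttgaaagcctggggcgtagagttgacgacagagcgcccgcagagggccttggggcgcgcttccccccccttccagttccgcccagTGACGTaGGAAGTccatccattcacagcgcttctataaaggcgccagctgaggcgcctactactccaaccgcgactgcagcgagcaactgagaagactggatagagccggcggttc

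Fosb, a FOS protein that is also induced acutely, read 3.76 in mtYAP and 3.40 in YAP, against 3.55 in control. It was not clearly measured on any array, with differences of 0.21 in mtYAP and −0.15 in YAP. Fosl1 encodes FRA1, the FOS protein that accumulates with sustained ERK activity. One probe set read 6.88 in mtYAP and 7.09 in YAP, against 6.71 in control, and the other read 5.86 in mtYAP and 5.98 in YAP, against 5.63 in control. Both YAP lines were above control in both probe sets, by 0.20 in mtYAP and 0.365 in YAP on average, far from the limit of 1. Fosl1 was the highest of the members in YAP, where 89.1% of all genes and 81.3% of those at a level of 6 or more had a lower difference.

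Fosl2 encodes FRA2, a FOS protein with slower kinetics. One probe set read 10.36 in mtYAP and 10.76 in YAP, against 10.82 in control. The other read 6.66 in mtYAP and 6.62 in YAP, against 6.65 in control. The mean differences were −0.225 in mtYAP and −0.045 in YAP, and the mtYAP difference came from the first of them alone, at −0.46. The 4 FOS genes thus spread between −1.18 and 0.21 in mtYAP and between −1.09 and 0.365 in YAP, with Fos standing apart from the other 3 in both lines.

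**Figure D2:**
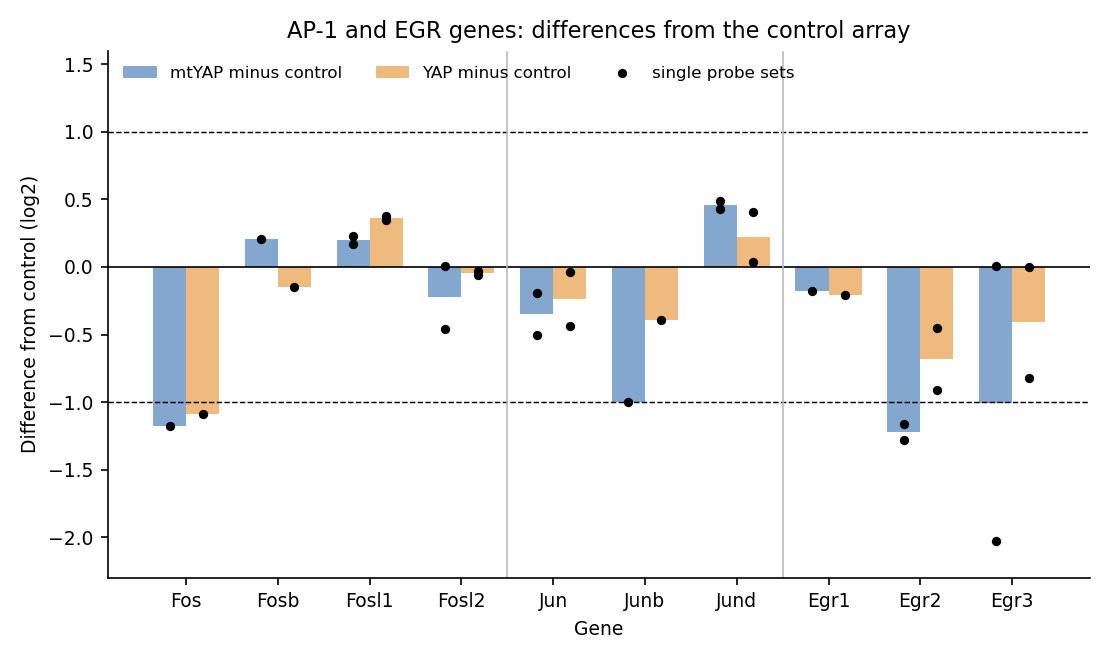
Log2 difference from the control array (vertical axis) of each gene in mtYAP (blue bars) and YAP (orange bars), as the mean of its probe sets, with single probe sets as black points, dashed lines at 1 and −1, and grey lines between the FOS, JUN and EGR families. Fos is below −1 in both, Egr2 is nearer to control in YAP than in mtYAP, and the 2 probe sets of Egr3 disagree, at −2.03 and 0.01 in mtYAP.

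In the JUN family, Jun, which encodes c-JUN and is itself induced through JNK and AP-1, was close to control. Its probe sets read 9.15 and 8.13 in mtYAP and 9.30 and 8.19 in YAP, against 9.34 and 8.63 in control. Both were lower in both lines, by 0.19 and 0.50 in mtYAP, with mean differences of −0.345 in mtYAP and −0.24 in YAP. Junb, a JUN protein that often opposes c-JUN in proliferation, read 6.30 in mtYAP and 6.91 in YAP, against 7.30 in control. Its difference was −1.0 in mtYAP (2-fold lower), exactly on the limit and so not counted beyond it, and −0.39 in YAP. Egr3 at −1.01 was the member just beyond the limit.

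Jund, the JUN gene that is expressed most steadily and is least dependent on stimulation, stood on the other side of control. One probe set read 10.33 in mtYAP and 10.25 in YAP, against 9.84 in control. The other, which was not clearly measured on any array, read 3.77 in mtYAP and 3.38 in YAP, against 3.34 in control. The mean differences were 0.46 in mtYAP and 0.225 in YAP, and 0.49 and 0.41 in the probe set that was clearly measured. Jund was the highest member in mtYAP. Among the 3 JUN genes, Junb and Jun were thus below control and Jund above it in both lines. The Junb promoter (GRCm38.p6, chr8:84978699-84978998, minus strand) is shown as that of the JUN gene lowest in mtYAP, with the ETS core, here as ACTTCC on the printed strand and 23 bases before the start, in capitals:
Junb: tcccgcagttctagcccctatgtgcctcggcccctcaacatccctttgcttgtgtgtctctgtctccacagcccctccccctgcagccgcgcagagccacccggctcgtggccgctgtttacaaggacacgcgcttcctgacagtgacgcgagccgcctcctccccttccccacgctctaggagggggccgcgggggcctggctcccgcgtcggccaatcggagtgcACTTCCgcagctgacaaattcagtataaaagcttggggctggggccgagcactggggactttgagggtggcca

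Egr1, the most widely used readout of serum and ERK signalling among the EGR genes, hardly differed. It read 11.81 in mtYAP and 11.78 in YAP, against 11.99 in control, which are differences of −0.18 and −0.21. Of all genes, 27.2% had a lower difference in mtYAP and 21.0% in YAP, and of those at a level of 6 or more 38.6% and 23.9%. Its level was far above 6 on every array, so that dimness does not limit this reading.

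Egr2, also called KROX20 and known for its part in myelination, read 5.11 and 4.99 in its probe sets in mtYAP and 5.82 and 5.36 in YAP, against 6.27 in both probe sets in control. Both probe sets ran the same way, and both reached 6 in control only. The mean difference was −1.22 in mtYAP (2.33-fold lower), the lowest of the members, and −0.68 in YAP (1.6-fold lower). Egr3, a further relative that is induced in activated lymphocytes and neurons, had probe sets that disagreed. One read 4.57 in mtYAP and 5.78 in YAP, against 6.6 in control, and the other 5.62 in mtYAP and 5.61 in YAP, against 5.61 in control. The mean of −1.01 in mtYAP and −0.41 in YAP therefore came from a single probe set, with differences of −2.03 and −0.82. With a loess over level removed, the mtYAP mean of Egr3 was −0.98, no longer beyond the limit. Since Egr2 and Egr3 reached 6 on the control array alone, the sizes of their differences are uncertain. The median of the 3 EGR genes was −1.01 in mtYAP and −0.41 in YAP, with Egr1 nearest to control.

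Egr2 has 5 RefSeq start sites in the promoter table, and 4 of the 5 windows hold a CArG box, the motif that SRF binds (CC, then 6 bases that are each A or T, then GG). The last 3 windows overlap and share a box. A CArG box was found in 1.63% of 32851 windows of the same length. One of these overlapping windows (GRCm38.p6, chr10:67537619-67537918, plus strand) is shown because it carries the CArG box, 72 bases before the start, beside the TGACGT core on the other strand, printed as ACGTCA and 56 bases before the start. Both are in capitals:
Egr2: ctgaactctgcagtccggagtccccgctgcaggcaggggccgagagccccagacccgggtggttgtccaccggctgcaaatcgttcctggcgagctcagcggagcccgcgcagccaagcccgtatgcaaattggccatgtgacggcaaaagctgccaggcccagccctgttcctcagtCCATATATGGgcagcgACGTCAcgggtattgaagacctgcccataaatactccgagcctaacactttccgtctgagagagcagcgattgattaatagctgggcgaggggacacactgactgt

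Windows were in the table for 7 members, namely Fos, Fosb, Fosl2, Jun, Junb, Jund and Egr2, and promoters of Fosl1, Egr1 and Egr3 are not analysed here. Each window was searched on both strands for 8 motifs. They were the CArG box of SRF, the cAMP response element TGACGTCA with its core TGACGT, which the longer motif contains, the AP-1 motif TGAGTCA, the TEAD motif GGAATG, the ETS core GGAAGT and the EGR motifs GCGTGGGCG and its variant GCGGGGGCG. Besides the matches in capitals, Fosb held GCGGGGGCG at 50 bases and Fosl2 at 79 bases before the start, which 2.91% of all windows did. The TEAD motif was matched in 1 of 11 member windows, at another start of Egr2, where 14.7% of all windows held it. TGACGT was in 7.51% of all windows, GGAAGT in 23.8%, TGACGTCA in 1.79%, TGAGTCA in 5.20% and GCGTGGGCG in 0.612%, and the last 3 were in no member window. A match is a string of letters in this window and not a measured site. Sequence outside the windows was not searched, so a motif absent from a window may lie beyond it.

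**Figure D3:**
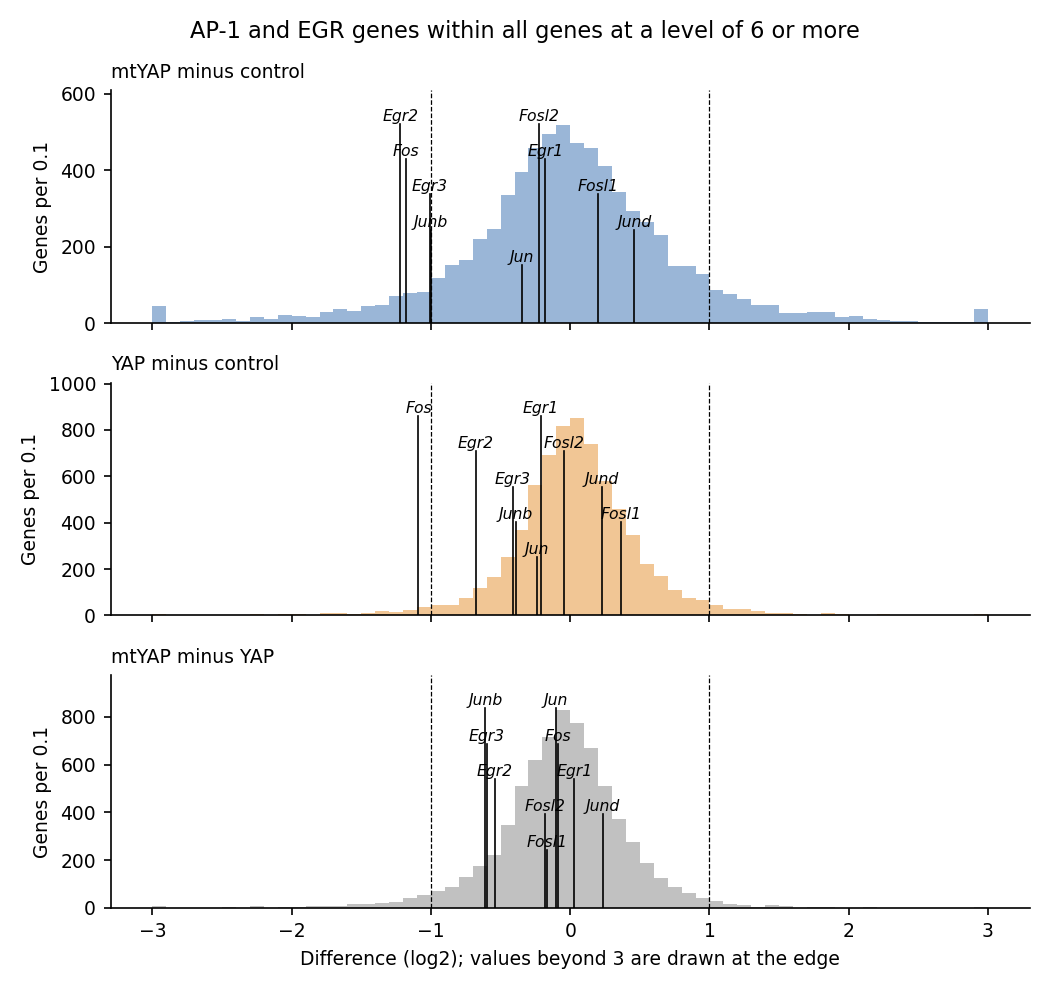
Number of genes (vertical axis) by log2 difference (horizontal axis, bins of 0.1) for mtYAP minus control, YAP minus control and mtYAP minus YAP, over the 7129 genes with a level of 6 or more on at least 1 array, with 9 members as labelled black lines and dashed lines at 1 and −1. Fosb, below 6 on every array, is left out, and the height of a labelled line has no meaning. Fos lies in the lower tail against control in both lines and near the centre between them.

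The direct comparison of mtYAP with YAP does not use the control array. No member differed by more than 1 in either direction, where 0.748% of all genes lay above 1 and 1.42% below −1, or 1.33% and 3.06% of those at a level of 6 or more. By sign, 7 of 10 were lower in mtYAP than in YAP, as were 44.8% of all genes and 54.3% of those at that level. Junb was lower in mtYAP than in YAP by 0.61, Egr3 by 0.60 and Egr2 by 0.54. The Egr3 value again came from 1 probe set, which stood at −1.21 while the other stood at 0.01. Fosb stood at 0.36 and Jund at 0.235, Fos at −0.09 and Egr1 at 0.03. Fosb was below 6 on every array. The Jund probe set that was clearly measured stood at 0.08, and the other, below 6 on every array, at 0.39. Junb and both probe sets of Egr2 were thus lower with mtYAP than with YAP, while Fos and Egr1 hardly differed between the lines. Jun stood at −0.105, Fosl1 at −0.165 and Fosl2 at −0.18. For 2 members the genes with the nearest pair of differences from control among 7128 others with a level of 6 or more were found. For Jund, the highest member in mtYAP, they were Uxs1, Mtus1 and Mrpl19, at Euclidean distances of 0.0083, 0.010 and 0.013 in log2 units. For Egr2, the lowest, they were C77080, Nxn and Wbp1, at distances of 0.010, 0.018 and 0.020. The likeness rests on 3 arrays, and for Jund on a mean that includes the probe set not clearly measured.

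Other bZIP proteins can join AP-1 dimers or compete with them. Of 12 measured of 14 listed, 1 lay above 1 and 1 below −1 in mtYAP, and 1 above 1 in YAP, and the median was 0.18 for mtYAP and −0.075 for YAP. Over the 6 genes that reached a level of 6, it was 0.52 for mtYAP and 0.28 for YAP, so that its sign in YAP turned with that filter. In mtYAP 1 of 12 is 8.33% each way. Of all genes, 3.77% lay above 1 and 4.06% below −1, and of those at a level of 6 or more 7.66% and 8.22%. The 1 above 1 in YAP is also 8.33%, where 1.36% of all genes and 2.72% of those at that level were. Each of these shares rests on 1 gene. Atf3, a stress-induced factor that pairs with JUN proteins, read 8.82 in mtYAP and 7.31 in YAP, against 5.66 in control, differences of 3.16 (8.94-fold) and 1.65 (3.14-fold). Atf3 was thus far above control in the same samples in which Fos was below it, although its control level was under 6. Maff, a small MAF protein, had differences of 0.82 (mtYAP) and 0.43 (YAP), and Jdp2, a JUN-binding repressor, had 0.585 and 0.465, from probe sets at 0.14 and 1.03 in mtYAP. Atf2, a JNK and p38 substrate, had differences of −0.60 (mtYAP) and −0.18 (YAP). The gene below −1 was Maf, at −2.06 in mtYAP, under 6 on every array and named after its values were seen.

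Of the 4 relatives and corepressors of EGR, none passed 1 in either direction. The corepressors Nab1 and Nab2 were clearly measured, and Nab2, itself induced by EGR proteins, read 7.51 in mtYAP and 7.98 in YAP, against 8.22 in control. The differences of Nab2 were −0.71 for mtYAP and −0.24 for YAP, and those of Nab1 −0.54 and −0.10. Of 14 measured known EGR targets, 3 lay below −1 in mtYAP and none above 1, and 1 below −1 in YAP. Their median was −0.35 for mtYAP and −0.15 for YAP. The 3 are 21.4% of the list, where 4.06% of all genes and 8.22% of those at a level of 6 or more lay below −1 in mtYAP, and the 1 in YAP is 7.14%, where 1.26% and 2.30% did. Those below −1 in mtYAP were Id3, an inhibitor of helix-loop-helix factors, at −3.09 in mtYAP and −1.22 in YAP, F3, tissue factor, at −1.42 and −0.84, and Egr2 itself, which is counted here as well.

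Of 24 measured known AP-1 targets, 4 lay above 1 and 1 below −1 in mtYAP, and 2 and 2 in YAP. In mtYAP these are 16.7% above 1, where 3.77% of all genes and 7.66% of those at a level of 6 or more were, and 4.17% below −1, where 4.06% and 8.22% were. In YAP they are 8.33% each way. There 1.36% of all genes and 2.72% of those at that level lay above 1, and 1.26% and 2.30% below −1. The median of the 24 targets was 0.23 for mtYAP and 0.14 for YAP. Ptgs2, the inducible cyclooxygenase, read 10.97 and 9.15 in its probe sets in mtYAP and 9.79 and 7.4 in YAP, against 7.99 and 5.40 in control. Its mean differences were 3.365 in mtYAP and 1.90 in YAP. Dusp4, a phosphatase of MAP kinases, stood at 1.89 and 1.21, Plaur, the urokinase receptor, at 1.61 and 0.69, and Ccnd1, a D-type cyclin, at 1.09 and 0.41. Mmp3, a matrix metalloproteinase, was the gene below −1 in mtYAP, at −1.25, and lay at −1.03 in YAP, where Mmp9 lay at −1.45. Both were under 6 on every array and were named after their values were seen. These targets are regulated by many other factors too. Like the other lists, this list was drawn up with earlier results of these arrays known, so its shares are not a test.

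**Figure D4:**
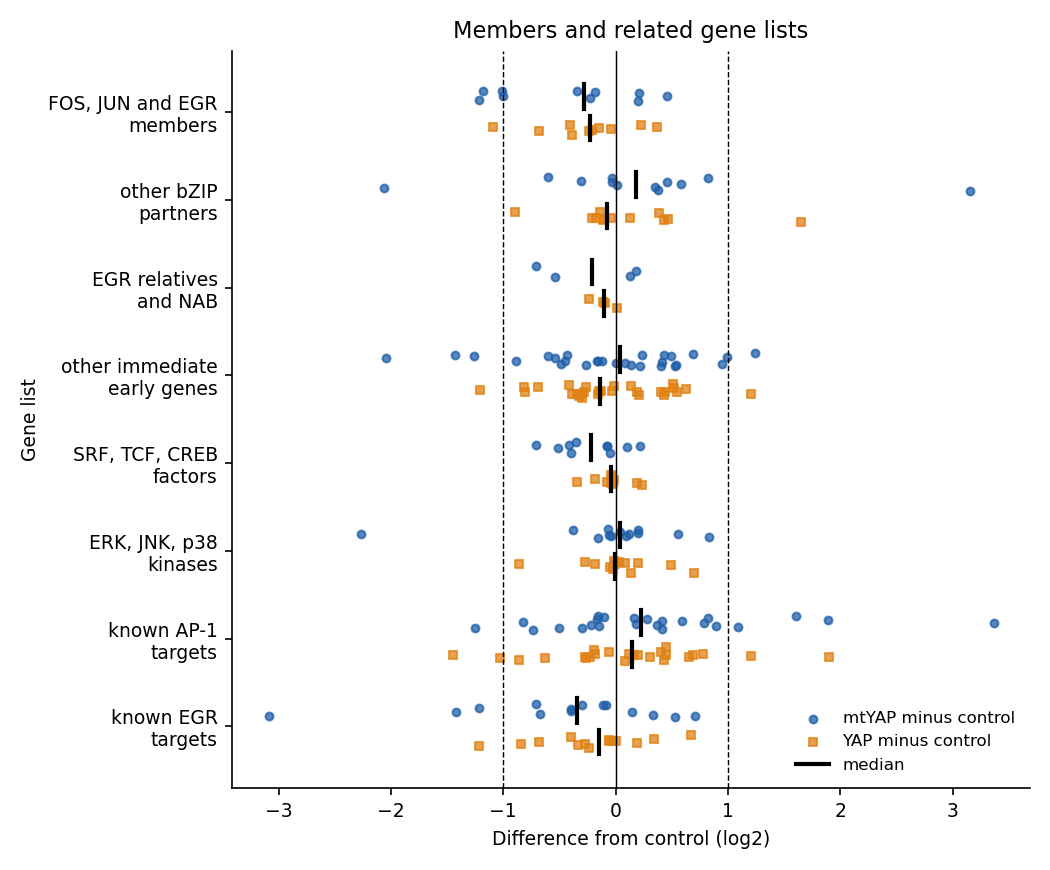
Members and 7 related lists (rows), each point a measured gene by its log2 difference from the control array (horizontal axis), in mtYAP (blue circles, upper) and YAP (orange squares, lower), list medians as black bars and dashed lines at 1 and −1. The spread of points within a row has no meaning. The member medians of −0.285 and −0.225 lie below 0, and those of the known AP-1 targets, 0.23 and 0.14, above it.

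Of 28 other immediate early genes, all measured, 3 lay below −1 and 1 above 1 in mtYAP, and 1 and 1 in YAP. In mtYAP these are 10.7% below −1, where 4.06% of all genes and 8.22% of those at a level of 6 or more were. They are 3.57% above 1, where 3.77% and 7.66% were. In YAP they are 3.57% each way. There 1.26% of all genes and 2.30% of those at that level lay below −1, and 1.36% and 2.72% above 1. Of the 28 listed genes, 23 reached that level on at least 1 array. The median of the 28 was 0.042 for mtYAP and −0.14 for YAP. Nfkbia, the inhibitor of NF-κB, had differences of −2.05 (mtYAP) and −1.21 (YAP), with all 5 of its probe sets below control. Zfp36l1, which promotes the decay of AU-rich mRNAs, stood at −1.43 and −0.805, and Nr4a1, an orphan nuclear receptor, at −1.26 and −0.33. Plk3, a polo-like kinase, stood at 1.24 and 0.43. The gene above 1 in YAP was Klf10, a zinc finger factor induced by TGF-β, at 1.21, and at 0.49 in mtYAP, named after its values were seen.

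Among the regulators of immediate early promoters, 10 of 10 were measured and none passed 1 in the mean of its probe sets. Their median was −0.22 for mtYAP and −0.037 for YAP. Mrtfa, an SRF coactivator, read 5.85 in mtYAP and 6.22 in YAP, against 6.56 in control, a difference of −0.71 in mtYAP. Crebbp, an acetyltransferase that CREB recruits, had −0.51 (mtYAP) and −0.18 (YAP), Mrtfb, a relative of Mrtfa, had −0.42 and −0.04, and Ep300, a relative of Crebbp, had −0.40 and −0.03. Srf itself, named after its values were seen, stood at 0.215 and −0.01. Of the kinases upstream, 13 of 21 were measured, with medians of 0.037 for mtYAP and −0.002 for YAP. Map2k6, an activator of p38, was the 1 of 13 below −1, at −2.27 in mtYAP and −0.86 in YAP. That is 7.69% in mtYAP, beside 4.06% of all genes and 8.22% of those at a level of 6 or more. Map2k1, an activator of ERK, stood at 0.83 and 0.70, Rps6ka3, a kinase downstream of ERK, at 0.56 and 0.49 and Map2k3, a further p38 activator, at −0.375 and −0.27. Phosphorylation, which governs these kinases and the AP-1 proteins, is not measured by RNA.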

How the data were processed

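Total RNA of mtYAP, YAP and control NIH3T3 cells was measured on Affymetrix whole-genome mouse expression arrays, after labelling as cRNA with biotin. The deposited values are log2 levels per probe set with 2 decimals, which the authors obtained with RMA, a method that corrects for background, sets the arrays to a common distribution and combines the probes of each set. The submitters' notes name RMA and affy without versions, and the sources used here do not give which arrays were normalized together. A shift shared by most genes would therefore not be seen. One label of the control speaks of ES cells, against NIH3T3 in all the others. On the control array the 12 fibroblast markers read from 8.12 to 13.34 and the 5 pluripotent markers from 1.75 to 4.13.

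Gene names came from the array platform's annotation, which gives 1 symbol for 34945 probe sets, several for 932 and none for 9160. Those with 1 symbol were used, with 18032 of 18194 Entrez identifiers found in the RefSeq table of GRCm38.p6. Probe sets of a gene were averaged and levels subtracted. Genes beyond 1 or −1 were counted, without those exactly on the limit. No test was run. The scripts for counts were tested on simulated data. Members and lists were chosen with earlier results of these data known. All members are named, with up to 4 genes of each list that have the largest mtYAP difference at a level of 6 or more, and 3 genes nearest to 2 members. Genes absent from a list's measured count are not analysed here, nor are protein sequences. The alternatives tried were the brightest probe set by mean level, single probe sets, no _s, _x or _a probe sets, probe sets of several genes, removal of the median difference or of a loess (span 0.3), a level of 6, a limit of 1.5-fold and, chosen after seeing the data, a limit that includes 1. Promoter windows are RefSeq sequences of GRCm38.p6. Python 3.11.15, numpy 2.4.6, pandas 2.3.3, statsmodels 0.14.6 and matplotlib 3.10.9 were used.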

Additional observations from a re-analysis of the deposited data

Results flagged for a closer look

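Fosb stood at 0.21 in mtYAP and −0.15 in YAP relative to control, on opposite sides of it. The difference between these values was not tested, each line has 1 array, and Fosb lay below a level of 6 on all 3.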

How the results depend on the processing

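Of 186 member values under alternatives, 69 could not change, since no probe set of several genes names a member, only Egr2 has a probe set of the _s, _x or _a kind and 4 members have 1 probe set. Of the 117 that changed in value, 109 stayed on their side of the limit and within 0.5, and 8 did not. Egr3 in mtYAP was −2.03 in its probe set of highest mean level, 0.01 in the other, on the other side of control, and −0.98 with the loess removed. In mtYAP minus YAP it was −1.21 and 0.01 in these probe sets. Junb in mtYAP was −1.02 with the median difference removed. The number of members below −1 in mtYAP was 2 with the loess removed, 4 with the median difference removed or 1 included in the limit, and otherwise 3 or, at 1.5-fold, 4. At 1.5-fold, 2 members were lower in YAP than in control and 2 in mtYAP than in YAP, and with the highest probe set 1 was in mtYAP than in YAP. No alternative put a member above 1. At 1.5-fold, 1721 and 1748 of all genes were higher and lower in mtYAP, 857 and 706 in YAP, and 695 and 922 in mtYAP than in YAP.

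Of the lists, genes with a level of 6 or more gave medians in mtYAP and YAP of 0.52 and 0.28 for the bZIP partners, 0.50 and 0.36 for AP-1 targets and −0.555 and −0.32 for EGR targets. They gave −0.63 for the EGR relatives in mtYAP and −0.03 for other immediate early genes in YAP, and 0 bZIP partners below −1 in mtYAP and 0 AP-1 targets below −1 in either. With the highest probe set, 2 bZIP partners lay above 1 in mtYAP and 1 below −1 in YAP, 2 other immediate early genes above 1 in each line, 2 AP-1 targets below −1 in mtYAP, with a median of 0.01 in YAP, and 2 promoter regulators below −1 in mtYAP, with a median of −0.39. The cause of these shifts was not tested. No paired analysis was possible because each condition has 1 array, and for the same reason no array could be left out. The number of arrays limits the precision.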
